A study of Rattus norvegicus with 20 samples.

Results

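The genes described here encode the proteins of the cytosolic ribosome, measured in whole blood of Wistar rats with surgically induced reflux esophagitis. Members were taken by name from the array's own annotation: every probe whose gene name began with Rpl or Rps followed by a subunit number, or was Rplp0, Rplp1, Rplp2 or Rpsa, without the S6 kinases. This gave 140 of 30367 probes and 79 of 26263 genes, of which 48 belong to the large subunit and 31 to the small subunit. Where a gene had several probes, the brightest stood for it. After a filter on dim probes 78 members were tested among 15239 genes, and the exception was Rpl10l, which was well above background on 2 of 20 arrays.

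There were 5 groups with 4 arrays each, and the design text gives 4 animals a group. They were esophagitis with omeprazole at 30 mg/kg, esophagitis with STW5 at 2 ml/kg, esophagitis with STW5 at 0.5 ml/kg, untreated esophagitis, and a sham operation. Omeprazole is a proton pump inhibitor that suppresses gastric acid, and STW5 is a liquid preparation of several medicinal plants. Both were given for 7 days before the operation and for 10 days after it. All animals were Wistar rats and all but the sham group had esophagitis, so no group received a drug without esophagitis. The titles and the design text number the STW5 dose groups in opposite order, and 8 columns of the authors' deposited table, all of STW5, follow the array of the other dose. The doses are given here as the titles have them, and the direction of any difference between them rests on that choice.

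A ribosome joins a large subunit, which forms peptide bonds, and a small subunit, which decodes the messenger RNA. Most of their proteins are made in equal numbers, and in mammals their messenger RNAs begin with a C and a run of pyrimidines, the 5′ terminal oligopyrimidine (TOP) element through which mTOR and LARP1 control their translation. In blood these transcripts are abundant in lymphocytes and in reticulocytes, which still translate, and less so in mature neutrophils.

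Levels are given as log2 of the processed signal relative to the 75th percentile of the same array, and that percentile ranged from 71.3 to 308 signal units over the 20 arrays. The markers of blood cells fixed for this work bore out the label of the tissue: 63 of the 75 on the array, Hba-a1, Hbb and Cd3e included, were well above background on all 20 arrays. Sham and untreated arrays shared the first slide, both STW5 doses the second, and omeprazole arrays the third. Where omeprazole or STW5 is set against another group, slide and group cannot be told apart, whereas untreated against sham and 2 against 0.5 ml/kg lie within a slide. Untreated array 3 stood apart in these genes: it held the lowest of the 20 levels for 48 of the 78 members, 25 of the large and 23 of the small subunit. STW5 0.5 ml/kg array 3 held the lowest level of another 15, and STW5 2 ml/kg array 1 the highest level of 33. Member medians in comparisons with untreated animals, and the values of many named genes, are therefore also given without untreated array 3.

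The median level of the ribosomal protein genes was 7.15 ± 0.29 with omeprazole, 7.41 ± 0.08 with STW5 at 2 ml/kg, 6.96 ± 0.27 with STW5 at 0.5 ml/kg, 6.91 ± 0.49 in untreated esophagitis and 7.24 ± 0.21 after sham operation (log2 scale, SD, n = 4 each). Pooled over the groups, the median standard deviation between arrays was 0.40 for the members and 0.51 for the genes tested. It was smaller for the members in 4 of the 5 groups, and with omeprazole it was 0.38 for the members and 0.34 for all genes. Sham arrays had the smallest median standard deviation of the members, 0.20, and untreated arrays the largest, 0.58. The 4 STW5 2 ml/kg arrays lay within 7.51 and 7.64 for the large subunit, above all 4 STW5 0.5 ml/kg arrays at 6.74 to 7.32.

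**Figure D1:**
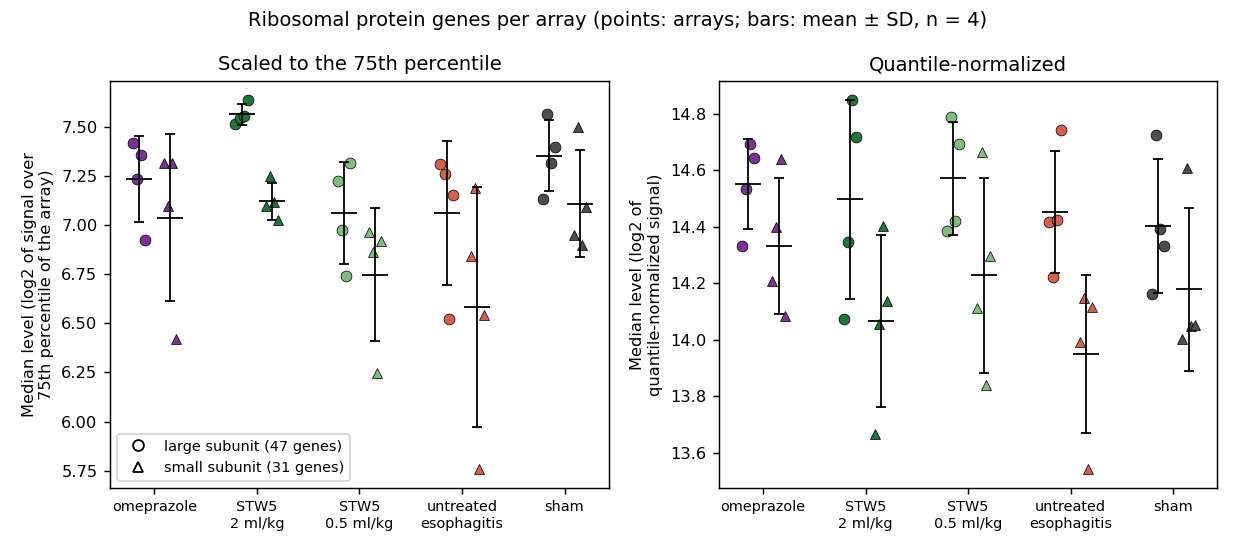
Median level of the large-subunit (circles, 47 genes) and small-subunit (triangles, 31 genes) ribosomal protein genes on each array, by group, with the signal scaled to the 75th percentile (left) and after quantile normalization (right). Points are arrays and bars are the mean ± SD of 4 arrays. With the 75th percentile, untreated array 3 is lowest (small subunit 5.76) and the STW5 2 ml/kg arrays are tightly grouped, while after quantile normalization the 2 STW5 doses overlap.

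The effect of the disease without a drug was read from untreated esophagitis against sham operation. Of the 78 members, 72 were lower in untreated esophagitis, against 61.9% of all genes, and none rose or fell at an adjusted p below 0.05 (limma), where 0.00656% of all genes were called. At an unadjusted p below 0.05 there were 4 members, or 5.13%, against 18.2% of all genes. The median log2 change was -0.37 for the members and -0.19 for all genes, which left -0.18 relative to all genes: -0.16 for the large and -0.25 for the small subunit. Without untreated array 3 the median relative to all genes was 0.03, with 64 of 78 members below 0. Without untreated array 1 there were 3 called members, Rpl5, Rpl3l and Rps23, among 1773 called genes.

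The sign of this shift also depended on the scaling. After quantile normalization the member median was 0.00 and that of all genes -0.07, so that the members lay 0.08 above all genes and 38 of 78 were lower. With normexp background correction the members lay 0.05 above all genes, and with normexp and quantile normalization their median did not differ from that of all genes to 2 decimals. Scaling to 7 spike-in probes put the member median at 0.19 and that of all genes at 0.37, with 26 of 78 members lower, leaving the relative value at -0.18, as for any scaling by a single number per array. With no filter on dim probes the members lay 0.07 above all genes, and in omeprazole and in STW5 against sham the relative medians were 0.13 and 0.16 in place of -0.06 and -0.02. Relative to all genes, quantile normalization kept the small subunit at -0.03 and put the large subunit at 0.08.

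The members with the lowest changes in untreated esophagitis were Rpl3l, Rpl41 and Rps27a. Rpl41, which encodes the shortest ribosomal protein, measured 10.33, 10.52, 6.65 and 9.02 on untreated arrays, against 10.35, 10.26, 10.52 and 10.31 on sham arrays. The sham arrays were close together and untreated arrays 3 and 4 lay below them, and the change of -1.23 ± 0.63 (SE) had an adjusted p of 0.29. Rps27a, whose product is made as a fusion with ubiquitin, had levels of 5.08, 6.21, 1.56 and 4.17 in untreated rats, against 5.54, 5.92, 5.10 and 4.86 in sham rats. Its change of -1.10 ± 0.71 (SE) had an adjusted p of 0.35, and 2 untreated arrays lay within the sham range or above it. Rpl3l, a paralogue of Rpl3 known from striated muscle, was well above background on 7 of 20 arrays, and its change of -1.27 ± 0.60 (SE) is that of a signal near the detection limit. Without untreated array 3 the changes were -0.40 for Rpl41 and -0.20 for Rps27a. Among the highest changes were those of Rps28 (0.13) and Rpl14 (0.06).

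Rpl5 and Rpl11 carry the 5S ribosomal RNA into the large subunit and can bind Mdm2, the ligase that degrades p53. Rpl5 measured 5.22, 4.88, 2.93 and 4.14 in untreated esophagitis, against 4.85, 5.88, 5.18 and 5.26 after sham operation. Its change was -1.0 ± 0.37 (SE; adjusted p = 0.24), and that of Rpl11 was -0.56 ± 0.35 (adjusted p = 0.34). Rpl23, another Mdm2-binding protein, had -0.59, and Rpl26, known in human cells as a regulator of p53 translation, -0.44. Without untreated array 3 the values were -0.55 for Rpl5, -0.14 for Rpl11, -0.21 for Rpl23 and 0.08 for Rpl26.

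On untreated array 3 the members did not fall evenly. Compared with the mean of the other untreated arrays, 68 of 78 were lower there and 37 were lower by more than 1 log2 unit, with a median of -0.91. Rps27a was lower by 3.60 log2 units on that array, Rpl41 by 3.30, Rpl39, a protein of the exit tunnel, by 3.27, and Rps24 by 3.23. At the other end Rpl15 was higher by 1.0, Rpl3l by 0.64, Rpl18 by 0.39 and Rpl3 by 0.38, of which Rpl15 was well above background on 19 of 20 arrays and Rpl3l on 7. Some other lists were lowest on the same array, and some were not. The mean levels of the elongation factors (3.58), initiation factors (1.68) and relatives of ribosomal proteins outside the naming rule (3.92) were the lowest of the 20 arrays there. Other genes with TOP messenger RNAs were lowest on untreated array 4 (4.67, against 4.74 on array 3). On array 3 ribosome biogenesis genes and those of mTOR and translation control lay 0.33 and 0.06 above their mean over all arrays. The mean level of the erythroid markers was 6.30, 6.43, 4.07 and 4.25 on untreated arrays 1 to 4, and the value on array 3 was the lowest of the 20 arrays, whereas that of the T-cell markers was 1.81, -1.24, 1.48 and 0.95, low on array 2. In untreated against sham all 14 tested T-cell markers, 9 of 10 B-cell markers and all 16 erythroid markers were lower, while 13 of 15 neutrophil markers and 7 of 8 monocyte markers were higher. None of these markers passed the test. The mean level over the erythroid list ranged from 4.07 to 6.43 in untreated rats and from 5.99 to 6.80 in sham rats, and over the T-cell list from -1.24 to 1.81 in untreated rats and from 1.62 to 2.16 in sham rats. In whole blood, fewer cells of a type and less RNA per cell cannot be told apart, and the part of the cell mixture in the members' changes was not tested.

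Omeprazole was compared with untreated esophagitis to follow acid suppression. Rpl7a, a protein of the large subunit, fell, and was the only member of 78 called, while 4.18% of all genes were called (3.83% lower). Rpl7a measured 3.93, 3.77, 3.94 and 3.88 on omeprazole arrays, against 4.91, 4.93, 4.86 and 5.00 on untreated arrays, with no overlap. On the other arrays it measured 4.66 to 5.23 with STW5 at 2 ml/kg, 4.88 to 5.08 with STW5 at 0.5 ml/kg and 4.87 to 5.20 after sham operation, so that every omeprazole array lay below each of the other 16. The log2 change against untreated was -1.05 ± 0.17 (SE), with an adjusted p of 0.00046 (limma). Of 24 alternatives, 23 kept the call, with adjusted p values between 3.24e-05 and 0.223, and the exception was scaling to the spike-in probes. Not all 24 were separate checks. Exchanging the STW5 doses leaves this comparison unchanged, and the authors' value table repeated median scaling. Averaging the probes of a gene leaves the levels of Rpl7a unchanged, since it has a single probe.

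The other members mostly lay slightly higher with omeprazole than in untreated esophagitis. In all 65 of 78 were higher, against 58.2% of all genes, and the median change was 0.27 against 0.10 for all genes. The relative median was 0.16 (0.13 for the large and 0.18 for the small subunit) with the 75th percentile and 0.08 after quantile normalization, and without untreated array 3 it was -0.06, with 40 of 78 members lower. The highest changes belonged to Rpl5 (0.96 ± 0.37 SE, adjusted p = 0.19) and Rps18 (0.73 ± 0.31, adjusted p = 0.25), which had 0.50 and 0.40 without untreated array 3. The lowest besides Rpl7a were Rplp1 (-1.07 ± 0.34, adjusted p = 0.105) and Rpsa (-0.89 ± 0.27, adjusted p = 0.0705), neither of which passed the test against untreated. At an unadjusted p below 0.05 there were 6 members, against 15.5% of all genes. Omeprazole arrays did not overlap with untreated arrays for Rpl14 and Rps26, which lay higher (2.31% of all genes), nor for Rpl7a and Rps28, which lay lower (4.95% of all genes). Without untreated array 3 all of Rpl7a, Rplp1 and Rpsa were called, and without untreated array 1 Rpl7a and Rpl5. Beside these changes 13 of 14 T-cell markers and 15 of 16 erythroid markers lay higher with omeprazole than in untreated esophagitis. So did 8 of 10 B-cell and 12 of 15 neutrophil markers, while 6 of 8 monocyte markers lay lower, 1 of them called. The part of these cells was not tested.

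**Figure D2:**
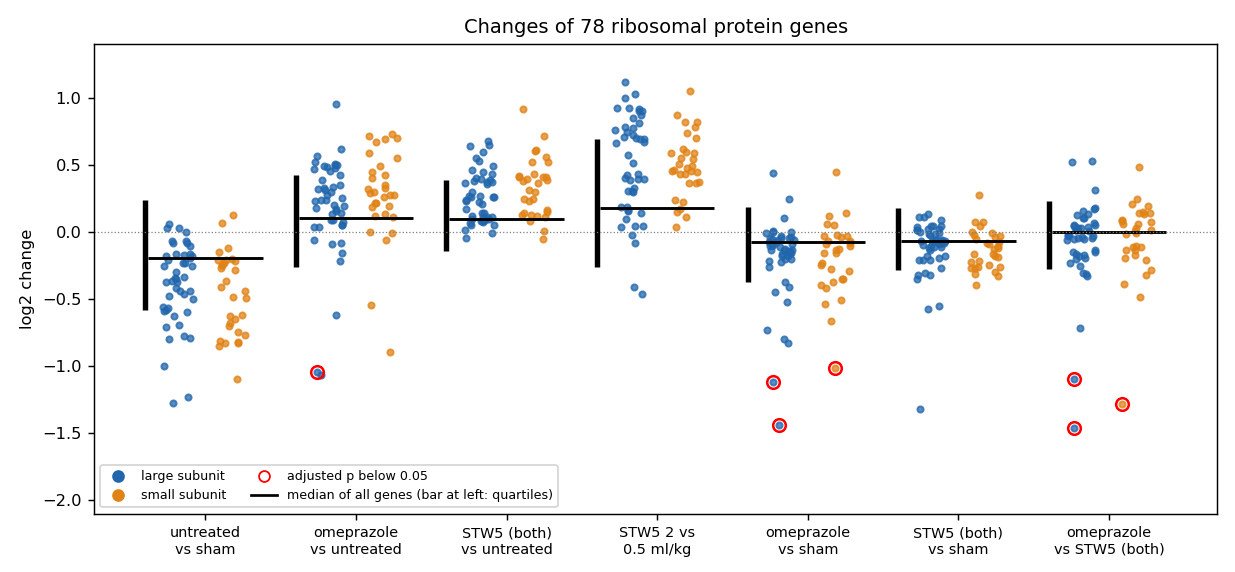
Log2 change of each of 78 ribosomal protein genes in 7 comparisons, with the large subunit in blue and the small subunit in orange. Black lines give the median of all 15239 genes and black bars the quartiles, and red circles mark adjusted p below 0.05. At this scaling (75th percentile) the members lie mostly below 0 in untreated against sham and mostly above it in STW5 2 against 0.5 ml/kg, and the marked genes are Rpl7a, Rplp1 and Rpsa on omeprazole arrays.

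Rplp1 and Rpsa fell when omeprazole arrays were set against sham arrays or STW5 arrays, as did Rpl7a. Rplp1, one of the acidic proteins of the stalk that recruits elongation factors, measured 7.12, 6.46, 6.71 and 5.92 with omeprazole, against 8.08, 7.99, 7.86 and 8.03 after sham operation, with no overlap. The change was -1.44 ± 0.34 (SE), with an adjusted p of 0.016 (limma). The stalk partners did not pass in the same comparison: Rplp0, the stalk base, changed by -0.14 and Rplp2 by -0.41. Rpsa, a small-subunit protein also known as the laminin receptor precursor, measured 5.45, 4.90, 5.07 and 4.58 with omeprazole, against 5.99, 6.0, 5.91 and 6.15 after sham operation, again with no overlap (-1.01 ± 0.27 SE, adjusted p = 0.032). Of 24 alternatives 20 kept the call of Rplp1, which was lost with spike-in scaling and without sham array 1 or omeprazole array 2 or 4 (adjusted p up to 0.192). The call of Rpsa was kept in 14 of 24 and was lost without any 1 of the sham arrays or without omeprazole array 2, 3 or 4, and with spike-in scaling, with no filter on dim probes and with the mean of a gene's probes (adjusted p up to 0.401). Here too the 24 include the exchanged doses and the authors' value table, which add no separate check. Nor does averaging probes for Rplp1, which has a single probe. Rpl7a changed by -1.12 against sham (adjusted p = 0.00023). These 3 of 78 members compare with 4.74% of all genes called between omeprazole and sham (4% lower), and the same 3 did not overlap with sham arrays on the lower side, as did 8.5% of all genes. At an unadjusted p below 0.05 there were 4 members, against 14.3% of all genes. Over all members the median change was -0.13 and that of all genes -0.08, and 69 of 78 lay below 0, against 57.8% of all genes. After quantile normalization 21 of 78 lay below 0, with a median of 0.13. The highest changes were those of Rps18 (0.44), Rpl14 (0.44) and Rpl3 (0.24), none of them called. Of 15 neutrophil markers 14 lay higher with omeprazole than after sham operation, and 3 were called. All 16 erythroid markers (median -0.44), 13 of 14 T-cell markers (median -0.15) and 7 of 10 B-cell markers (median -0.24) lay lower. Of 8 monocyte markers 7 lay higher (median 0.63), and none of these 4 lists had a called marker. The part of these cells was not tested.

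Against both STW5 doses the same 3 genes were called lower with omeprazole, where 4.86% of all genes were called (4.65% lower). The changes were -1.46 for Rplp1 (adjusted p = 0.0032), -1.29 for Rpsa (0.00091) and -1.10 for Rpl7a (3.7e-05), and all 3 were called with any single array left out. Rplp1 and Rpl7a did not overlap with the 8 STW5 arrays, whereas the highest omeprazole array of Rpsa, 5.45, exceeded the lowest STW5 array, 5.31. Groups that did not overlap on the lower side made up 3.88% of all genes. At an unadjusted p below 0.05 there were 4 members, against 14% of all genes. Over the 78 members the median change was -0.02, with 37 above 0 and 41 below, and the highest were Rpl5 (0.53), Rpl3l (0.52) and Rps18 (0.48). The calls against untreated, sham and STW5 share the omeprazole arrays and are not independent, and slide cannot be told apart from the drug in any of them.

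Probes of the same gene did not give the same answer on the omeprazole arrays. Among 45 members with at least 2 tested probes, the difference between the highest and the lowest log2 change of a gene's probes had a median of 0.09 and a largest value of 0.48 in untreated against sham. In STW5 against untreated, which averages both doses and sets the second slide against the first, the median was 0.04 and the largest 0.39. Only omeprazole arrays lie on the third slide, so slide and drug cannot be told apart here either. In omeprazole against untreated the median was 0.25 and the largest 2.66, and 4 genes differed by more than 1 log2 unit: Rps23, Rpl9, Rps19 and Rpsa. In omeprazole against STW5 the median was 0.24 and the largest 2.65. Among all 138 tested probes of the members, 6 were called lower against STW5 (4.35%, the share of all 17236 probes being 4.35%), 6 against sham (all probes 3.64%) and 3 against untreated (all probes 3.62%), each for a different gene, and none was called higher.

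**Figure D3:**
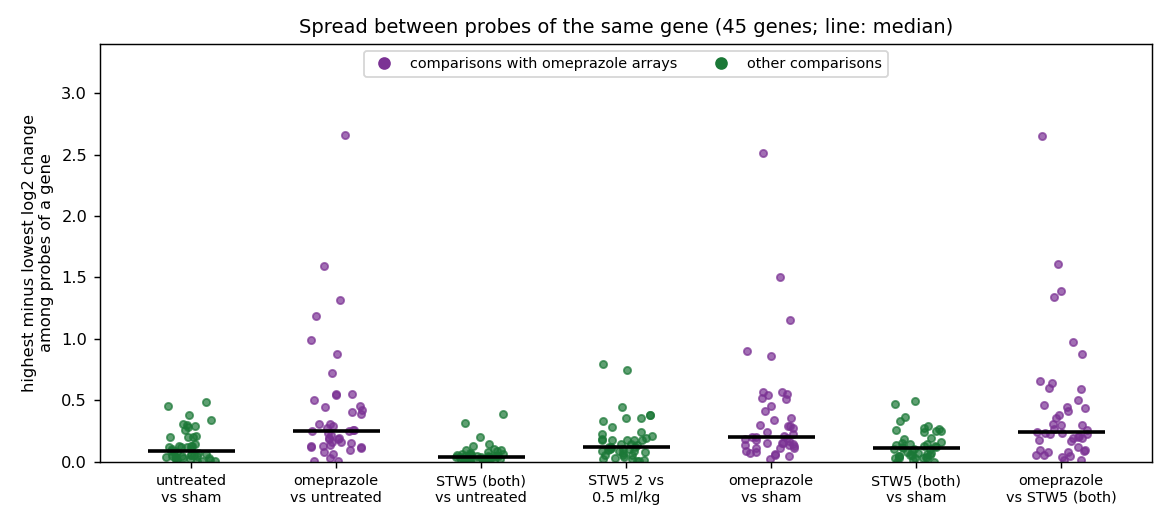
Highest minus lowest log2 change among the probes of a gene, for 45 ribosomal protein genes with 2 or more tested probes, by comparison. Points are genes and lines are medians. The comparisons with omeprazole arrays (purple) have medians of 0.20 to 0.25 and reach 2.66, whereas the others (green) have medians of 0.04 to 0.12 and stay below 0.80.

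Rps23, a small-subunit protein at the decoding centre, shows this most plainly, because 2 of its probes overlap and differ at few bases. Whether both match the same transcript was not tested. They are shown with the positions at which they differ in capitals, followed by the brightest probe, which lies upstream (plus strand of the rat build rn4, at chr2:21047791-21047849, chr2:21047796-21047855 and chr2:21047736-21047795 per the files; each probe has 60 bases).
A_64_P065502: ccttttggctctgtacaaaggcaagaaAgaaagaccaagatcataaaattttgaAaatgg
A_64_P031072: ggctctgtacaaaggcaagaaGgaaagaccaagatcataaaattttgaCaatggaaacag
A_64_P049904: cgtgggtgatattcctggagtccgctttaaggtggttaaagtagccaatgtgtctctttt
The first 2 overlap over 54 bases and differ there by A28G and A55C, counted from 1 at the 5′ end of A_64_P065502, whose base is given first. A_64_P065502 measured 2.78, 2.31, 2.26 and 2.20 with omeprazole, against 5.39, 4.46, 4.36 and 4.87 in untreated esophagitis. On the 12 arrays of the STW5 and sham groups it stayed between 4.80 and 5.82, and the lowest level outside the omeprazole group was 4.36. Its change of -2.38 ± 0.24 (SE) had an adjusted p of 1.7e-06 over all probes (limma). A_64_P031072 measured 7.04, 6.62, 6.45 and 6.14 with omeprazole, against 7.36, 6.48, 6.28 and 6.58 in untreated esophagitis, and these groups overlapped (-0.11 ± 0.26 SE, adjusted p = 0.86). A_64_P049904 changed by 0.27 ± 0.26 (SE, adjusted p = 0.61).

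Rpl7a has a single probe on the array, so its fall could not be set against another probe of the same gene. A near match carries the transcript name ENSRNOT00000045252 and lies on another chromosome (rn4, chr10:40282284-40282343, minus strand, against chr3:5810185-5810399, plus strand, for Rpl7a, a span longer than the probe), and the bases at which the pair differ are in capitals.
A_64_P015603, Rpl7a: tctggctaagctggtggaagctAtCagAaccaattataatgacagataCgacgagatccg
A_64_P030859, ENSRNOT00000045252: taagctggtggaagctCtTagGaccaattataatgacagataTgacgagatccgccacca
They overlap over 54 bases with the differences A23C, C25T, A28G and C49T, counted from 1 at the 5′ end of the Rpl7a probe. In omeprazole against untreated, A_64_P015603 fell by 1.05 log2 units and A_64_P030859 changed by 0.09. The Rpl7a probe had further near matches, which differed in the same comparison. Those of RGD1563220 and XM_224007 changed by 0.06 and -0.56, the unnamed A_64_P094771 by -0.24 and that of ENSRNOT00000048646 by -2.93.

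Rps19, whose human counterpart is mutated in Diamond-Blackfan anemia, has 3 tested probes, of which one fell. It is shown beside a near match that the array does not name, with the differences T21A, G25A, C34T and A59G in capitals (counted from 1 at the 5′ end of the first), and with the brightest Rps19 probe. In rn4 they lie at chr1:80182296-80182355 (plus), chr10:2375431-2375490 (minus) and chr1:80177549-80177608 (plus).
A_64_P076880, Rps19: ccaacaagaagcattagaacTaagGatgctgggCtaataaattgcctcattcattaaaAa
A_64_P130304, unnamed: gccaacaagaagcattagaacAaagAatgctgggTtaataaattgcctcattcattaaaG
A_64_P003994, Rps19: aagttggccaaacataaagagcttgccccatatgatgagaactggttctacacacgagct
A_64_P076880 had levels of 5.66, 5.27, 5.73 and 5.24 with omeprazole, against 6.15, 6.79, 5.95 and 6.45 in untreated esophagitis, with no overlap (-0.86 ± 0.23 SE, adjusted p = 0.033 over all probes). The brightest probe A_64_P003994 changed by 0.21 ± 0.26 (adjusted p = 0.71) and the third, A_64_P107623, by 0.46 ± 0.26 (adjusted p = 0.40). The unnamed near match A_64_P130304 changed by -0.33 in the same comparison.

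Rpsa and Rpl9, a large-subunit protein near the base of the stalk, each have 2 probes that do not overlap, and in both genes one fell with omeprazole against sham while the other did not pass. Their sequences are given because the call of these genes turns on the probe used. In rn4 the Rpsa probes lie at chr8:125104037-125104095 and chr8:125100879-125100938, and the Rpl9 probes at chr14:45595817-45595876 and chr14:45595592-45595651, all on the plus strand.
A_64_P036631, Rpsa: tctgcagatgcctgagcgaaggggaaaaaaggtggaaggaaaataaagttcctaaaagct
A_64_P173102, Rpsa: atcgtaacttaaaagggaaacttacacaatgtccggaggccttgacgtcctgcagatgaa
A_64_P016307, Rpl9: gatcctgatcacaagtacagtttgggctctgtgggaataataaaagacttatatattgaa
A_44_P266946, Rpl9: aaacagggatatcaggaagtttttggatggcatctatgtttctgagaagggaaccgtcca
For Rpsa the brighter probe, A_64_P036631, changed by -1.01 against sham (adjusted p = 0.034 over all probes) and A_64_P173102 by -0.11 (adjusted p = 0.96). With the mean of all probes of a gene in place of the brightest, the call of Rpsa was lost against sham and against STW5. For Rpl9 the dimmer probe, A_64_P016307, measured 4.00, 3.32, 3.15 and 2.72 with omeprazole, against 4.90, 5.51, 4.66 and 4.43 after sham operation (-1.58 ± 0.40 SE, adjusted p = 0.027). The brighter A_44_P266946 measured 6.11, 5.50, 5.51 and 4.79 with omeprazole, against 5.52, 6.2, 5.32 and 5.18 after sham operation (-0.08 ± 0.41, adjusted p = 0.98). Rplp1 has 1 probe, and the array names a second, A_44_P394016 of RGD1565054, that shares 49 bases with it without a mismatch (rn4, chr8:66046260-66046319 and chrX:82975725-82975784, both minus strand).
A_64_P027003, Rplp1: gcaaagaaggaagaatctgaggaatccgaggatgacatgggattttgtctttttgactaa
A_44_P394016, RGD1565054: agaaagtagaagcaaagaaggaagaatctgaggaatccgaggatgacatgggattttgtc
In omeprazole against untreated A_64_P027003 changed by -1.07 and A_44_P394016 by -0.35. In omeprazole against STW5 they changed by -1.46 and by -0.73. A near match of the Rplp1 probe, A_64_P155108 of RGD1560815 (60 bases, 6 mismatches), changed by -2.48 against untreated and by -2.75 against STW5.

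**Figure D4:**
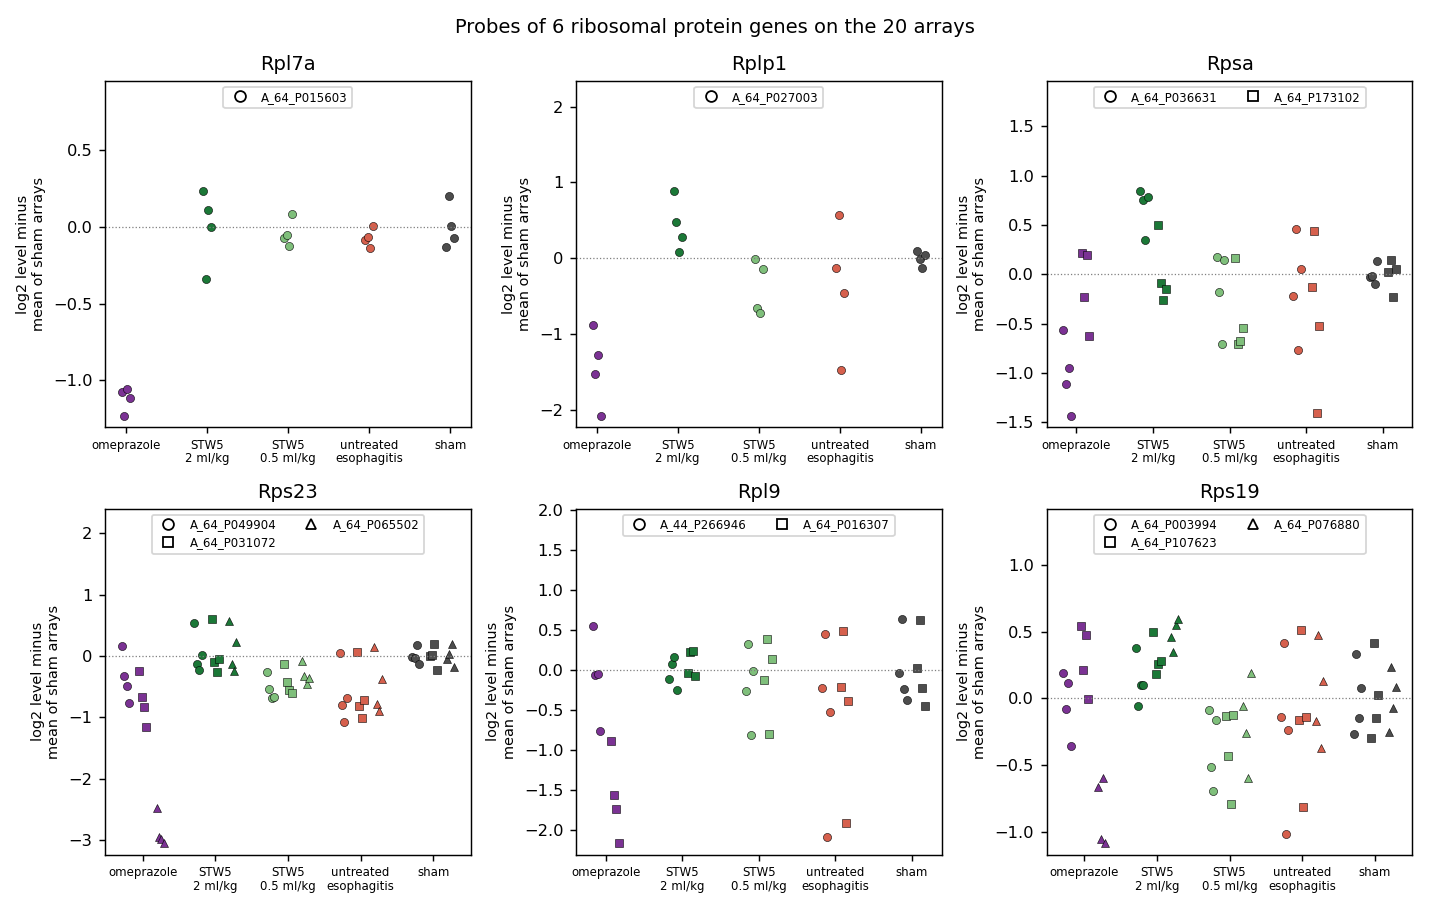
Level of each probe of Rpl7a, Rplp1, Rpsa, Rps23, Rpl9 and Rps19 on the 20 arrays, minus that probe's mean over the sham arrays (log2 scale). Points are arrays, colours are groups and symbols are probes. A_64_P065502 of Rps23, A_64_P016307 of Rpl9 and A_64_P076880 of Rps19 lie below all sham arrays on the omeprazole arrays, by mean differences of -2.87, -1.58 and -0.85, further than the other probes of these genes.

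Near matches to other probes of the array were counted for all 138 tested member probes. A near match was an ungapped overlap of at least 40 bases that had mismatches, at most 6 of them. Overlaps without a mismatch were not counted, whereas other probes of the same gene were. A near match existed for 66 probes, and the 3 probes called lower in omeprazole against untreated, of Rps23, Rpl7a and Rps19, were among them. The near match of the Rps23 probe was another Rps23 probe, so the count is not one of similarity to other genes. Against STW5 4 of 66 probes with a near match and 2 of 72 without one were called lower. The 6 probes called against STW5 had a median GC content of 37.5% (35 to 45%), and the other 132 had 45% (35 to 55%). The counts are small and these features were looked up after the calls were known. Mammalian ribosomal protein genes have many processed pseudogenes, and whether signal on these probes came from other loci was not tested.

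STW5 was compared with untreated esophagitis over both doses. No member was called and no gene of the array was (0%; limma), and at an unadjusted p below 0.05 there was 1 member, or 1.28%, against 9.55% of all genes. The member was Rpl15. The members lay higher with STW5 in 75 of 78 cases, against 60.4% of all genes, with a median of 0.27 and 0.10 for all genes. Rps27a had the largest change at 0.91, followed by Rps24 (0.71) and Rpl41 (0.68), and Rps28 (-0.06), Rpl3l (-0.05) and Rpl6 (-0.01) were the 3 below 0. Without untreated array 3 the changes of Rps27a, Rps24 and Rpl41 were 0.02, -0.09 and -0.15. After quantile normalization the relative median was 0.05, and without untreated array 3 it was -0.03 in place of 0.17, with 34 of 78 members lower. Of the markers, 15 of 16 erythroid (median 0.50) and 13 of 14 T-cell (median 0.61) lay higher with STW5 than in untreated esophagitis. Of 8 monocyte markers 7 lay lower (median -0.64), while 5 of 10 B-cell and 8 of 15 neutrophil markers lay higher. None of these markers was called, and their part was not tested. Against sham no member and no gene was called (0%), 1 member (Rpl3l) had an unadjusted p below 0.05 against 8.11% of all genes, and the median change was -0.09 for the members and -0.07 for all genes. Of the 78 members 61 lay below sham, as did 57.9% of all genes, with Rpl3l (-1.32), Rpl5 (-0.57) and Rpl41 (-0.55) lowest and Rpsa (0.27), Rpl14 (0.13) and Rpl27 (0.11) highest. All 16 erythroid, all 10 B-cell and 13 of 14 T-cell markers lay lower with STW5 than after sham operation, with medians of -0.66, -0.86 and -0.51. Higher with STW5 were 12 of 15 neutrophil markers (median 0.93) and 7 of 8 monocyte markers (median 0.40). None of all these was called, and the part of these cells was not tested.

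The 2 STW5 doses were compared within their slide. At 2 ml/kg 74 of 78 members lay higher than at 0.5 ml/kg, against 59.7% of all genes, and the median change was 0.49 for the members and 0.18 for all genes. Relative to all genes the median was 0.31, with 0.34 for the large and 0.30 for the small subunit, and all 31 small-subunit genes lay higher. No member and no gene passed an adjusted p of 0.05 (0%; limma), and the lowest adjusted p of a member was 0.062, for Rpl37a. At an unadjusted p below 0.05 there were 25 members (32.1%), against 26.6% of all genes. In 27 members the lowest 2 ml/kg array lay above the highest 0.5 ml/kg array, against 7.36% of all genes.

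The stalk proteins were among the members that did not overlap between the doses. Rplp0 measured 11.52, 11.07, 10.5 and 10.99 at 2 ml/kg, against 10.44, 9.64, 9.82 and 10.20 at 0.5 ml/kg (0.99 ± 0.27 SE, adjusted p = 0.075). Rplp2 measured 10.12, 9.97, 9.43 and 9.90 at 2 ml/kg, against 9.26, 8.67, 8.59 and 9.30 at 0.5 ml/kg (0.90 ± 0.23 SE, adjusted p = 0.068). Rplp1 changed by 0.81 (adjusted p = 0.15), so all 3 stalk genes lay higher in every 2 ml/kg array without passing the test. Rpl37a, a zinc-binding protein of the large subunit, measured 10.14, 9.87, 9.30 and 9.72 at 2 ml/kg, against 8.95, 8.43, 8.34 and 9.21 at 0.5 ml/kg. Rps29, a small-subunit protein mutated in some human patients with Diamond-Blackfan anemia, changed by 1.05, and Rpl41 by 1.12. Among the proteins of the catalytic core and its surroundings, Rpl4 changed by 0.74, Rpl10, which joins late in the maturation of the large subunit, by 0.38, and Rpl3 by -0.02. Of the genes that do not follow, Rpl15 changed by -0.46 (adjusted p = 0.40), Rpl5 by -0.41 (adjusted p = 0.48) and Rpl23 by -0.08.

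The difference between doses depended on the scaling. After quantile normalization the member median was -0.07, with 45 of 78 lower, and -0.01 relative to all genes. With normexp background correction it was -0.18 relative to all genes. Scaling to the spike-in probes put all 78 members lower at 2 ml/kg, by a median of -0.78, and all genes by -1.09, and called 28 members among 7762 genes. The 75th percentile itself differed between the doses, at 71.3 to 163 signal units on the 2 ml/kg arrays and 152 to 308 on the 0.5 ml/kg arrays. With log2 of it as a covariate the relative median was 0.07. Without STW5 0.5 ml/kg array 3, low in many members, the relative median was 0.17 in place of 0.31. Then 10 of 78 members lay lower in place of 4, and none was called. Without STW5 2 ml/kg array 3 there were 9 called members, among them Rps15, Rpl37a, Rplp2, Rpl35, Rps29, Rpl28, Rpl29 and Rplp0, among 807 genes, and without STW5 0.5 ml/kg array 4 there was 1, Rpl37a, among 144 genes. Erythroid markers lay higher at 2 ml/kg in 14 of 16 cases (median 0.67) and neutrophil markers lower in 14 of 15 (median -0.59). Among lymphocyte markers, 9 of 14 T-cell markers lay lower (median -0.20) and 6 of 10 B-cell markers higher (median 0.14). Monocyte markers lay lower in 7 of 8 cases (median -0.83) and platelet markers higher in 8 of 10, and none of all these passed. The part of these cells in the difference was not tested.

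Several small-subunit proteins with known roles showed no call in any comparison at the 75th-percentile scaling. Rps6, the substrate of the S6 kinases, changed by -0.62 ± 0.30 (SE) in untreated against sham (adjusted p = 0.27), by 0.55 in omeprazole against untreated and by 0.04 between the STW5 doses. Rps3, at the entry of the messenger RNA channel, changed by -0.21, 0.19 and 0.11 in these comparisons, and Rps4x, encoded on the X chromosome, by -0.41, 0.32 and 0.22. Rps14, whose human counterpart lies in the region lost in the 5q- syndrome, had the values -0.83, 0.67 and 0.78, with adjusted p values of 0.33, 0.53 and 0.32. Rps26, near the exit of the messenger RNA channel, had closely spaced levels of 4.58, 4.55, 4.57 and 4.55 on omeprazole arrays, against 4.26, 4.35, 4.18 and 4.32 on untreated arrays. These groups did not overlap, yet the change of 0.29 ± 0.17 (SE) had an adjusted p of 0.44 in the fit that shares the spread of all groups. Rps27, a zinc-finger protein, changed by -0.48, 0.45 and 0.24. Among the large subunit, Rpl13a, known in human monocytes for silencing inflammatory transcripts after its release from the ribosome, had -0.58, 0.49 and 0.91. Rpl35a, also mutated in Diamond-Blackfan anemia, had -0.56, 0.47 and 0.43, and Rpl36a -0.71, 0.51 and 0.14. None of these values passed the test. They are those of the brightest probe, and other probes of the same gene differed. Between the STW5 doses the 4 tested probes of Rpl36a ranged from 0.14 to 0.94. The 3 of Rps14 ranged from 0.40 to 0.78 there, and the 2 of Rps6 from 0.04 to 0.39. In untreated against sham the Rps6 probes had -0.62 and -0.28. Without untreated array 3 the changes in untreated against sham were -0.31 for Rps6, -0.13 for Rps3, -0.19 for Rps4x, -0.19 for Rps14, -0.12 for Rps26, -0.17 for Rps27, -0.09 for Rpl13a, -0.23 for Rpl35a and 0.0059 for Rpl36a. In omeprazole against untreated they were 0.24 for Rps6, 0.11 for Rps3, 0.10 for Rps4x, 0.03 for Rps14, 0.26 for Rps26, 0.13 for Rps27, -0.0018 for Rpl13a, 0.13 for Rpl35a and -0.21 for Rpl36a.

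Promoter sequences were available for 63 members (64 entries; RefSeq, build GRCr8). In 24 of 64 (37.5%) the annotated start was a C followed by at least 4 more pyrimidines, against 2.63% of 33469 promoters. With such a run within 5 bases of the annotated start the shares were 40 of 64 (62.5%), against 17.0% of all promoters. The letters CTTTC lay within 20 bases of the start on the coding strand in 48.4% of the members' promoters and 4.97% of all promoters. A match is a description of these letters and says nothing of use of the element. Examples are shown with the run in capitals, and 2 genes without a run at the annotated start. Each has 40 bases before the start and 20 from it. Of these 2 genes, Rpl5 holds the letters CTTTC shortly before its start, and Rps6 does not hold them within 20 bases.
Rplp1: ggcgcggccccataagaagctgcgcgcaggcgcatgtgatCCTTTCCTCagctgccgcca
Rpl35a: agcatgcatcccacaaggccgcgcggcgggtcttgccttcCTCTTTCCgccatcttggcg
Rps27: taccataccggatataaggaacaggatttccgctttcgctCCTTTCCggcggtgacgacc
Rps18: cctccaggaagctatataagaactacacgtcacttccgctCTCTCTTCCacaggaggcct
Rpl10: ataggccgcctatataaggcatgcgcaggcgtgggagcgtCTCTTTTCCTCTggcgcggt
Rps6: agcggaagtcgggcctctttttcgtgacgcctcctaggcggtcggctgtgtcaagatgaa
Rpl5: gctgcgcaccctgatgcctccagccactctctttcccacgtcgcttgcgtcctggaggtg
The run begins at the start base and spans 7 to 12 bases in the first 5 genes. The stretches are at chr8:71290853-71290912 (minus strand) for Rplp1, chr11:81235002-81235061 (minus) for Rpl35a, chr2:177964587-177964646 (minus) for Rps27, chr20:4933705-4933764 (plus) for Rps18, chrX:157205810-157205869 (plus) for Rpl10, chr5:106420521-106420580 (minus) for Rps6 and chr14:1995206-1995265 (minus) for Rpl5.

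Other genes of translation were read from lists, whose counts stand against 4.18% of all genes called in omeprazole against untreated (3.83% lower) and 61.9% of all genes lower in untreated against sham. Of 8 elongation factors, Eef1a1, which delivers aminoacyl-tRNA to the ribosome, fell with omeprazole against untreated (-1.42 ± 0.21 SE, adjusted p = 0.00011), and 7 of 8 lay lower in untreated esophagitis than after sham operation with none called. Of 30 initiation factors, Eif3h, a subunit of the factor that binds the small subunit (-2.48, adjusted p = 8.4e-08), and Eif5b, which joins the subunits (-1.57, adjusted p = 0.0019), fell with omeprazole against untreated, and none was called higher. These falls, like that of Eef1a1, rest on the brightest probe of each gene. Near matches were searched for member probes only, and slide cannot be told apart from the drug. Among 7 other genes with TOP messenger RNAs, 32 ribosome biogenesis genes and 18 genes of mTOR and translation control, none was called in either direction in that comparison or in untreated against sham, where the list medians were -0.51, -0.12 and -0.06 and that of all genes was -0.19. Among 5 relatives of ribosomal proteins outside the naming rule, such as Rack1, all 5 lay lower in untreated esophagitis and none was called. Rack1, a scaffold on the small subunit, changed by -0.55 (adjusted p = 0.32).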

How the data were processed

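Whole-blood RNA of 20 rats was hybridized to Agilent arrays with a single colour. Per the file headers, the deposited spot intensity (Agilent Feature Extraction 10.7.3.1) was background-subtracted and spatially detrended by the authors' scanner software, and arrays were not scaled to each other. The table deposited by the authors holds a ratio, the processed signal over the array median, as found by setting its columns against the scanner files, and was used only as an alternative. Non-control spots of a probe were averaged on the log2 scale, leaving out outlier spots (0.683% of values), and no spot was saturated. The deposited values have no counts, and the number of arrays limits precision. Coordinates of probes are those of the files (rn4). RefSeq accessions named 18005 of the 30367 probes. The filter kept the 17236 probes that the scanner software marked as well above background on 4 or more arrays. limma 3.58.1 (R 4.3.3; lmFit and eBayes on 5 group means, 15 residual degrees of freedom) gave two-sided tests, adjusted by Benjamini-Hochberg over all genes or, for probes, all probes; all adjusted p values in the text are from it. Fits were tested on simulated data.

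The members and lists were chosen with earlier results of these data known. Named were genes with known roles, the 3 highest and 3 lowest changes per comparison, all called members and genes whose probes differ by over 1 log2 unit, and from each list the 3 genes with the smallest p in untreated against sham and in omeprazole against untreated, of which some are given. Some genes that this rule names are not reported here. Ranking members by level was not done, since levels of different probes are not comparable. Replicate numbers came from the titles; deviations of same-numbered arrays correlated at -0.44 to 0.59 (19 of 40 over 0.1), and all 4 were over 0.1 in 1 of 10 pairs of groups, untreated with STW5 at 2 ml/kg, which are not set against each other alone here. The numbers were therefore not taken as pairs. Arrays numbered 1 nevertheless correlated at 0.20 to 0.59 among the 4 groups with esophagitis, and the replicate block is given as an alternative below.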

Additional observations from a re-analysis of the deposited data

Results flagged for a closer look

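Of 215 sets of 4 arrays checked for an array far from the other 3, 9 were marked, where chance marks about 1 in 20. STW5 0.5 ml/kg array 3 was low for the small-subunit median (6.245, others 6.863 to 6.966), Rpl13a (6.263, others 7.204 to 7.375), Rpl6 (7.132, others 7.386 to 7.434), Rps14 (6.538, others 7.543 to 7.596) and Rps27a (3.815, others 5.108 to 5.307). Rps3 was low on untreated array 3 (6.748, others 7.047 to 7.094). Rps28 was high on omeprazole array 3 (7.143, others 6.719 to 6.741) and low on sham array 1 (7.099, others 7.287 to 7.31). Rps26 was low on STW5 2 ml/kg array 2 (4.238, others 4.693 to 4.744).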

How the results depend on the processing

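Called members numbered 0 in untreated against sham and 2 with array weights. In omeprazole against untreated there was 1, against 3 with quantile normalization, normexp, normexp with quantile normalization, or log2 of the 75th percentile as a covariate, 2 with the 95th percentile, the median, the authors' value table or the replicate block, 5 with array weights and 0 with spike-in scaling. With spike-in scaling the 3 calls against sham and the 3 against STW5 became 0, and with array weights 10 and 6. Between the STW5 doses 0 became 28 with spike-in scaling, 12 with no filter on dim probes, 7 with the replicate block, 4 with normexp and 2 with probes above background on all arrays. There the relative median of 0.31 became -0.0086 with quantile normalization, -0.015 with normexp and quantile normalization, -0.18 with normexp, -0.18 with no filter, and -0.31 with the doses exchanged or the authors' value table. With spike-in scaling 7 named genes turned and passed the test: Rpl10 (-0.88), Rpl35a (-0.83), Rps3 (-1.15), Rps4x (-1.05), Rps6 (-1.23), Rps26 (-0.90) and Rps27 (-1.03). Leaving out 1 array gave 0 to 3 calls in untreated against sham, 1 to 3 in omeprazole against untreated, 1 to 3 against sham, 3 against STW5, 0 in STW5 against untreated or sham, and 0 to 9 between the doses. The relative medians then ranged from -0.39 to 0.03, -0.06 to 0.30, -0.19 to 0.06, -0.13 to 0.08, -0.03 to 0.33, -0.07 to 0.06 and 0.17 to 0.36 for untreated against sham, omeprazole against untreated, sham and STW5, STW5 against untreated and sham, and 2 against 0.5 ml/kg. Over all genes, array weights called 2140, 2215, 4008 and 3061 in untreated against sham and in omeprazole against untreated, sham and STW5, in place of 1, 637, 722 and 741. Between the doses 529 genes were called with the replicate block, in place of 0. The block changed the count of called members only there, from 0 to 7, and in omeprazole against untreated, from 1 to 2. The cause of these changes was not tested. With 4 arrays a group, small shifts of single members were not detectable.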
